A study of Homo sapiens with 2 samples.

Results

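The 37 genes described here make up the route of glucose in U87 cells, from its entry through the membrane to lactate export or to the mitochondrial oxidation of pyruvate. They were chosen by name, as the transporters and enzymes of glycolysis with the genes that set the fate of its product. The rule uses no measured value, but the list was drawn up with earlier results of these data known. All 37 were found among the 41582 gene symbols with a transcript in the table. U87 is an established human glioblastoma cell line, labelled as wild type, and was grown in RPMI medium with fetal bovine serum. One group received the vehicle DMSO and the other CCA-1.1, an analog of curcumin in which a hydroxyl group replaces the ketone of its parent compound PGV-1, each for 72 h. The dose of CCA-1.1 is not given in the labels. Each condition had 1 library, so no difference has a replicate check, no error between samples can be given, and no p-value was calculated.

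Glycolysis splits glucose into pyruvate in the cytosol. Glucose enters through SLC2A (GLUT) carriers, is trapped by hexokinase, is committed by phosphofructokinase and is cut by aldolase, and the later steps return ATP and NADH. Pyruvate is then reduced to lactate by lactate dehydrogenase and exported by SLC16A (MCT) carriers, or it enters the mitochondrion through the MPC1 and MPC2 carrier and is oxidised by pyruvate dehydrogenase, which the PDK kinases switch off and the PDP phosphatases switch on. Tumour cells, glioblastoma included, are known for running much of their glucose to lactate even in oxygen, and many of these genes are targets of the hypoxia-inducible factors (HIFs).

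The values are in TPM, a unit scaled both to transcript length and to the library total, so that levels can be set side by side between genes. The level of a gene is the sum of TPM over its transcripts. A difference is the log2 of the CCA-1.1 level over the DMSO level after 1 TPM was added to both, so a positive value means higher in the CCA-1.1 library. This scale understates the differences of genes at low TPM. Read depth does not follow from TPM, so no counting interval is available either. In bulk RNA, fewer cells of a type and less RNA per cell cannot be told apart.

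The glycolytic genes were close to level between the libraries. Of the 37, 18 were higher and 19 lower in the CCA-1.1 library, 19 lay between -0.1 and 0.1, and the median difference was -0.0094. None was past 2-fold, a limit applied here to gene sums with no p-value, where 0.149% of 12041 protein-coding genes averaging at least 1 TPM were past 2-fold higher and 0.191% past 2-fold lower. At a lower limit of 0.32 on the log2 scale, set so that modest differences of abundant genes could be described, none was higher and 1 was lower, against 6.84% higher and 4.53% lower of those 12041 genes. The median of the 36 members averaging at least 1 TPM was 0.0002, beside 0.02 over all such protein-coding genes. Among the 35 members averaging at least 10 TPM none was past 0.32, against 4.33% higher and 3.62% lower of 7906 protein-coding genes at that level. Of these 35, 18 lay between -0.1 and 0.1, beside 3771 of the 7906. Lying near level was thus not particular to the glycolytic genes.

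**Figure D1:**
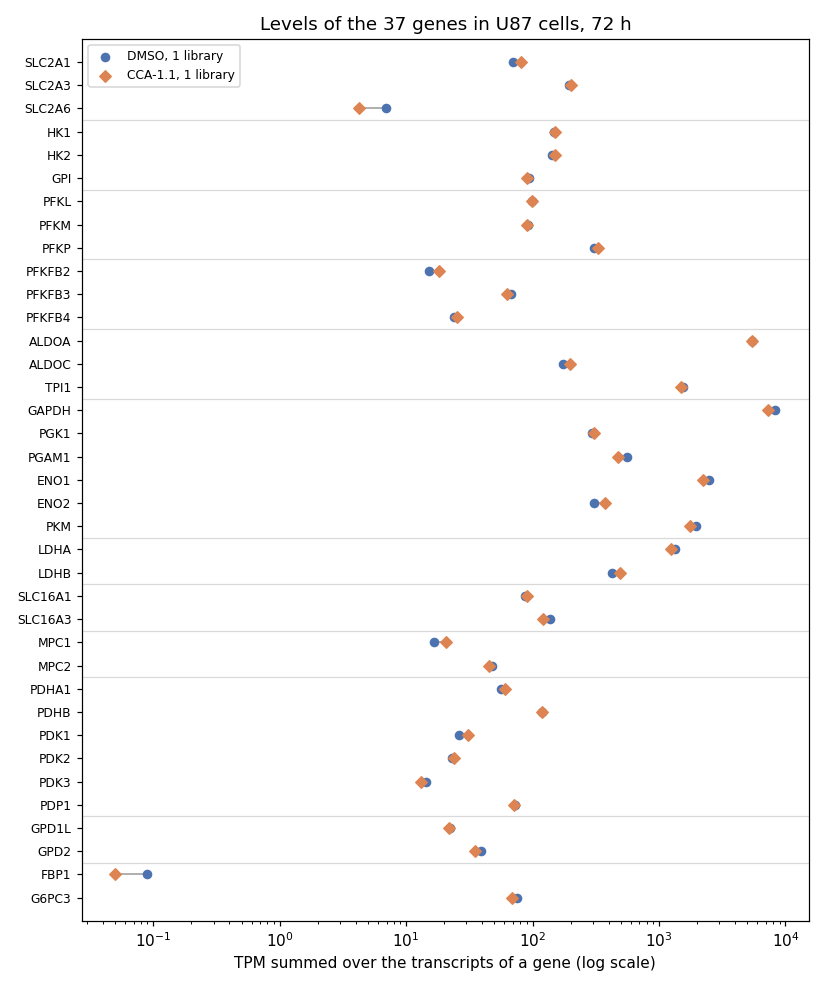
Level of each of the 37 genes in TPM on a log axis, with the DMSO library as circles and the CCA-1.1 library as diamonds, 1 library each, and pale lines between functional groups. GAPDH at 8352 and 7260 TPM and ALDOA at 5457 and 5422 TPM are the most abundant, FBP1 is under 0.1 TPM in both, and most pairs of symbols touch.

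Promoter sequences are shown for the genes at both ends of the range of differences, so that the members that differed most can be read beside their values. By the rule for naming them, these were the pair with the lowest and the pair with the highest differences among members averaging at least 5 TPM: SLC2A6 and PGAM1, and MPC1 and ENO2. The sequences are RefSeq windows of GRCh38.p14, from 250 bases before a transcription start to 50 after it, printed 5′ to 3′ on the strand of the gene. Capitals mark ACGTG and GCGTG, the cores of the hypoxia response element, on either strand. The SLC2A6 window is chr9:133479050-133479349 on the minus strand and holds 3 matches to GCGTG, 1 of them on the opposite strand. The MPC1 window is chr6:166382891-166383190 on the minus strand and holds 2 matches to GCGTG, 162 and 70 bases before the start. The ENO2 window is chr12:6914330-6914629 on the plus strand and holds 1 match to ACGTG, 118 bases before the start. The window listed for PGAM1 surrounds a start 1627 bases inside the gene and not the outermost start, so it is not printed, and it holds none of these letters.
SLC2A6: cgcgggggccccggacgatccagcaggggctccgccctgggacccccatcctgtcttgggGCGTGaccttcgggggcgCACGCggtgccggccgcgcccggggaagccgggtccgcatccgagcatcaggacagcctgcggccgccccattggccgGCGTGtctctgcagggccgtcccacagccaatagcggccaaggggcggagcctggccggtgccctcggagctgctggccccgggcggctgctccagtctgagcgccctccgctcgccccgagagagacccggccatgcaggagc
MPC1: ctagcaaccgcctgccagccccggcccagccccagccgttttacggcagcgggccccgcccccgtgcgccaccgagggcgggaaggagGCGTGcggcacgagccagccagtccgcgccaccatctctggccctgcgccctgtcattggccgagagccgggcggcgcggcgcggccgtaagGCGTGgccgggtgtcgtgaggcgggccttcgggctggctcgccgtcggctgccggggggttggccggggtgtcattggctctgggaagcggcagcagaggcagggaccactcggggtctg
ENO2: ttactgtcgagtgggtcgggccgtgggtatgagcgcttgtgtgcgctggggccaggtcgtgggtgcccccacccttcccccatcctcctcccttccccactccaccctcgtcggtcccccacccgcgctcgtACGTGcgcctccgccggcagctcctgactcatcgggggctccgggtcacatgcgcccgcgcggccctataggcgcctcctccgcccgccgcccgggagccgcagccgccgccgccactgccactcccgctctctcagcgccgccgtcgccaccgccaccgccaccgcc

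Windows were listed for 33 of the 37 genes, and SLC2A3, SLC16A1, PFKFB2 and PDP1 had none. ACGTG was found in 19 of the 33 genes (57.6%), beside 28.5% of 15843 protein-coding genes. GCGTG was found in 24 (72.7%), beside 50.4%. The E-box CACGTG, which contains ACGTG, was found in 9 (27.3%), beside 10.9%. The glycolytic genes had more windows listed per gene (2.0, against 1.40 for protein-coding genes), which gives each gene more room for a match. Per window of 300 bases, ACGTG was in 37.9% of 66 windows of the glycolytic genes and in 23.0% of 22199 windows of protein-coding genes, and CACGTG in 16.7% and 8.3%. GCGTG was in 43.9% and 43.0%, so its higher share per gene was not seen per window. The 19 genes with ACGTG and the 14 without it had the same median difference, -0.02. A match describes letters and not a bound site.

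The most abundant glucose transporter RNA of the 3 was SLC2A3, the high-affinity GLUT3 of neurons and many tumours, at 196 TPM in the DMSO library and 202 TPM in the CCA-1.1 library. SLC2A1, the ubiquitous carrier GLUT1, was at 70.5 TPM with DMSO and 81.0 TPM with CCA-1.1, a difference of 0.20. SLC2A6, the GLUT6 carrier found on intracellular membranes, was at 6.89 TPM with DMSO and 4.23 TPM with CCA-1.1. Its difference of -0.59 was the only one of the 37 past 0.32 and lay at percentile 1.0 among protein-coding genes of 1 to 10 TPM. This value rests on predicted transcripts: over curated transcripts alone it was -0.18. Summed over the 3 carriers, uptake genes stood at 273 TPM with DMSO and 287 TPM with CCA-1.1.

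Hexokinase traps glucose as its 6-phosphate. HK1, the housekeeping form, was at 147 TPM with DMSO and 151 TPM with CCA-1.1. HK2, the form that many tumours express, was at 143 and 151 TPM. The 2 forms shared the hexokinase TPM almost equally in both libraries, with HK1 at 50.6% and then 49.9% of their sum. GPI, which turns glucose 6-phosphate into fructose 6-phosphate, was at 94.5 TPM with DMSO and 90.8 TPM with CCA-1.1.

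Phosphofructokinase was led by the platelet-type subunit PFKP, at 305 TPM with DMSO and 328 TPM with CCA-1.1, which made 61.6% and 63.4% of the TPM of the 3 subunits. The liver-type subunit PFKL was at 98.5 and 99.2 TPM and the muscle-type subunit PFKM at 92.0 and 90.4 TPM. The difference of PFKL, 0.01, was -0.11 over curated transcripts, so its sign depends on that choice. The PFKFB enzymes make and remove fructose 2,6-bisphosphate, the main activator of phosphofructokinase, and their sum was 106 TPM in both libraries. PFKFB3, the form with the strongest kinase bias, was at 67.0 TPM with DMSO and 62.4 TPM with CCA-1.1 and went from 63.2% to 59.1% of that sum. PFKFB2 was at 15.2 and 18.1 TPM, a difference of 0.24. PFKFB4 was at 23.8 and 25.1 TPM, a difference of 0.08.

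Aldolase RNA was nearly all ALDOA, at 5457 TPM with DMSO and 5422 TPM with CCA-1.1, a difference of -0.01. ALDOC, the brain form, was at 173 and 198 TPM, a difference of 0.19. TPI1, which interconverts the triose phosphates that aldolase releases, was at 1561 and 1504 TPM. Together the 3 genes summed to 7191 TPM with DMSO and 7123 TPM with CCA-1.1.

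The payoff-phase enzymes, from GAPDH to pyruvate kinase, held the largest absolute difference. GAPDH, which oxidises glyceraldehyde 3-phosphate and yields NADH, was at 8352 TPM with DMSO and 7260 TPM with CCA-1.1, lower by 13.1%. Its difference of -0.20 lay at percentile 10.3 among protein-coding genes averaging at least 10 TPM. PGAM1, a phosphoglycerate mutase, was at 560 and 475 TPM, a difference of -0.24 at percentile 7.4. ENO1, the widespread enolase, was at 2472 and 2222 TPM, and ENO2, the enolase of neurons, at 309 and 371 TPM. Thus ENO1 was lower by 0.15 on the log2 scale while ENO2 was higher by 0.26, at percentile 92.4, and ENO2 made 11.1% of enolase TPM with DMSO and 14.3% with CCA-1.1. PKM was at 1950 and 1774 TPM, and PGK1, the first enzyme to return ATP, at 296 and 309 TPM. Summed, the 6 genes stood at 13940 TPM with DMSO and 12412 TPM with CCA-1.1.

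**Figure D2:**
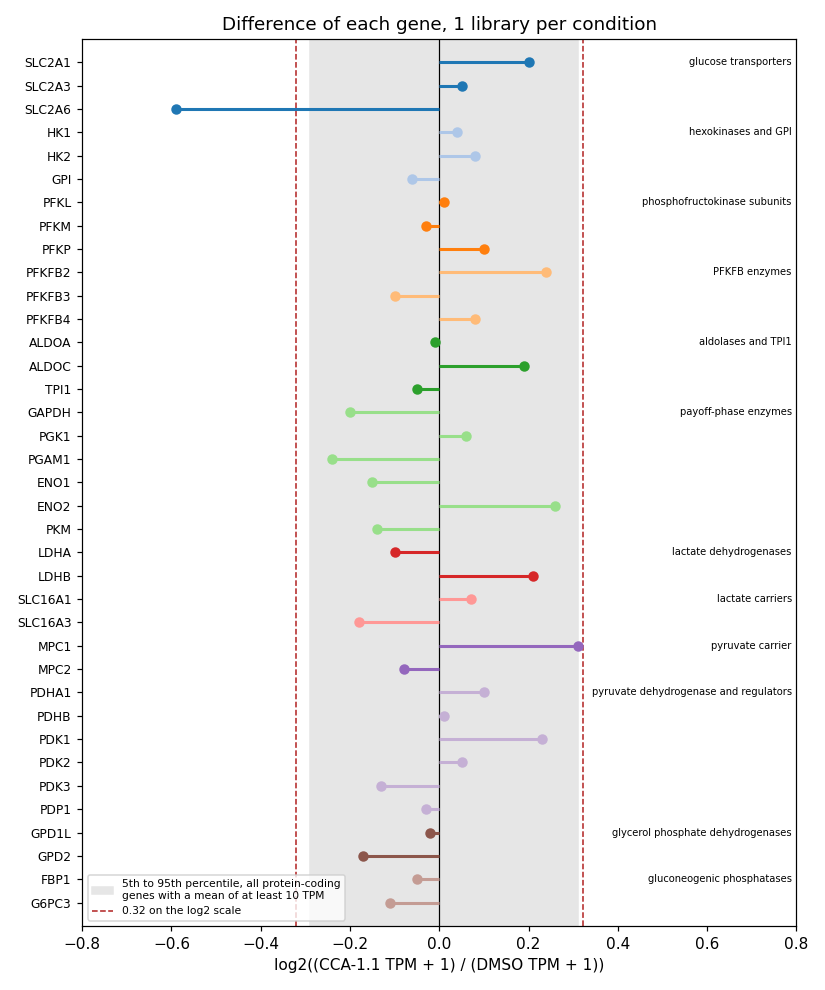
Difference of each of the 37 genes on the log2(TPM + 1) scale, positive where CCA-1.1 was higher, coloured by functional group, with 1 library per condition. The grey band spans percentile 5 to 95 of protein-coding genes averaging at least 10 TPM (-0.29 to 0.31), the dashed lines mark 0.32 in both directions, and SLC2A6 at -0.59 is the only gene past a line.

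Because of these abundant enzymes, the summed TPM of the 37 genes was 24893 with DMSO and 23304 with CCA-1.1, or 2.49% and 2.33% of the library. GAPDH made most of that gap. Without it the sums were 16541 and 16044 TPM, a log2 ratio of -0.04 in place of -0.10. The 6 members averaging at least 1000 TPM (ALDOA, TPI1, GAPDH, ENO1, PKM and LDHA) were each lower with CCA-1.1, with differences from -0.20 to -0.01 and a median of -0.12. Of the 113 protein-coding genes at that level, 50 (44.2%) were lower and the median was 0.07. The level of 1000 TPM was chosen after the values were seen.

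Lactate dehydrogenase showed the same order as enolase, with the major form lower and the minor form higher. LDHA, the form that favours lactate production, was at 1344 TPM with DMSO and 1253 TPM with CCA-1.1, a difference of -0.10. LDHB, the heart form that favours the reverse reaction, was at 424 and 490 TPM, a difference of 0.21. LDHB made 24.0% of the pair with DMSO and 28.1% with CCA-1.1, while the summed level was 1767 and 1743 TPM. SLC16A3 (MCT4), the carrier known for lactate export, was at 137 and 122 TPM, and SLC16A1 (MCT1), which carries lactate both ways, at 86.5 and 90.8 TPM. The share of SLC16A1 in this pair was 38.6% with DMSO and 42.8% with CCA-1.1. In the aldolase, enolase and lactate dehydrogenase pairs alike, the less abundant form was the higher one with CCA-1.1, a pattern noticed after the values were seen and not shared by every step. Among the phosphofructokinase subunits the leading PFKP had the larger share with CCA-1.1 (by 1.8 points) and the least abundant PFKM the smaller (by -1.1 points). Among PDK1 to PDK3 the share of the leading PDK1 differed by 4.4 points and that of the least abundant PDK3 by -3.4 points. This order depends on predicted transcripts. Over curated transcripts alone PDK2 led, and PDK1 was the least abundant with DMSO (27.0%, beside 27.9% for PDK3). The leading PDK1 entry, itself a curated one, is annotated as non-coding (NR_103729.2), so neither set of shares gives the coding PDK1 RNA. Every share in the aldolase, enolase and lactate dehydrogenase pairs moved by less than 5 percentage points.

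**Figure D3:**
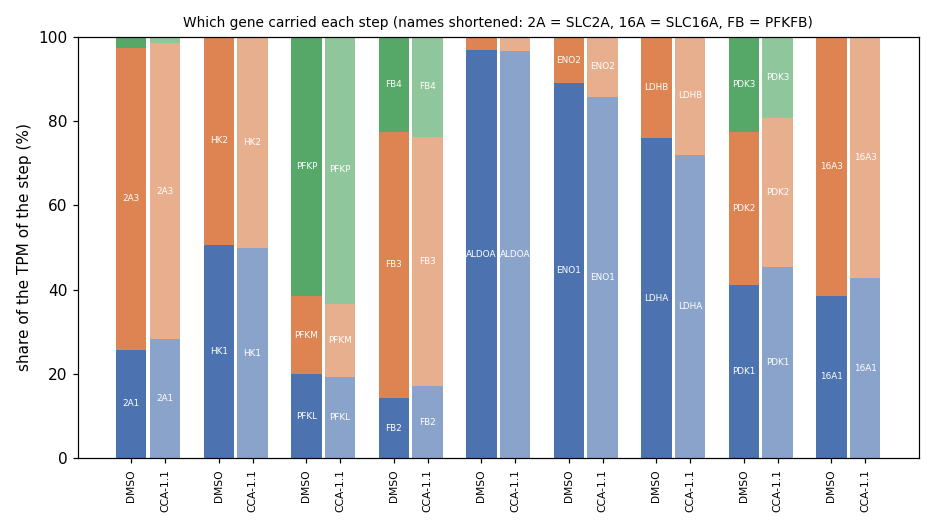
Share of each gene in the summed TPM of its step, in percent, with the DMSO library in full colour and the CCA-1.1 library in the paler bar beside it, 1 library each. The unlabelled top segments are SLC2A6 (2.5% and 1.5%) and ALDOC (3.1% and 3.5%), and the leading gene of each step is the same in both libraries except for HK1 and HK2, which lie near equal shares.

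At the mitochondrial entry of pyruvate, MPC1 had the highest difference of all 37 genes. It was at 16.5 TPM with DMSO and 20.6 TPM with CCA-1.1, a difference of 0.31 at percentile 94.9. Its partner subunit MPC2 was at 47.7 and 45.0 TPM, a difference of -0.08. The leading MPC2 entry is annotated as non-coding (NR_026550.3, 97.8% and 97.4% of the gene), so the level of coding MPC2 RNA is uncertain. For the carrier as a whole the sums were 64.2 and 65.6 TPM.

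The pyruvate dehydrogenase subunits were level, with PDHA1 at 56.5 TPM with DMSO and 60.6 TPM with CCA-1.1 and PDHB at 118 and 119 TPM. PDP1, the phosphatase that activates the complex, was at 72.8 and 71.0 TPM. Among the inhibitory kinases, PDK1, a HIF target, was at 26.0 and 30.7 TPM, a difference of 0.23. Its leading entry is annotated as non-coding (NR_103729.2, 52.9% and 51.0% of the gene), so the level of coding PDK1 RNA is uncertain. PDK2 was at 23.1 and 24.0 TPM and PDK3 at 14.3 and 13.0 TPM. The family member with the largest difference was PDK4, which is not one of the 37 and is known as the kinase induced by fasting and lipid use. It was at 13.7 TPM with DMSO and 25.0 TPM with CCA-1.1, a difference of 0.82. With PDK4 the kinase sum was 77.1 TPM with DMSO and 92.7 TPM with CCA-1.1, and the PDK4 share was 17.8% and 26.9%.

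GPD2, the mitochondrial enzyme of the glycerol phosphate shuttle, was at 39.4 TPM with DMSO and 34.9 TPM with CCA-1.1, a difference of -0.17. GPD1L, related to the cytosolic enzyme of that shuttle, was at 22.3 and 22.0 TPM, and its difference of -0.02 was 0.10 over curated transcripts. FBP1, the gluconeogenic fructose bisphosphatase, was at 0.09 and 0.05 TPM, too low for a comparison. G6PC3, the ubiquitous glucose 6-phosphatase, was at 74.9 and 69.4 TPM. None of these enzymes was past 0.32.

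Single transcripts varied more than genes. The 37 genes have 307 transcripts in the table, of which 59 were at 0 in both libraries and 129 had a mean of at least 1 TPM. Of these 129, 3 were past 2-fold higher and 4 past 2-fold lower, in 5 genes, beside 7.04% of 34503 transcripts at that level in either direction. Kallisto, the program used for quantification, divides reads shared by several transcripts of a gene by estimation, so opposite values within a gene can offset each other. In 22 of the 36 members averaging at least 1 TPM, the leading transcript held at least 80% of the gene in both libraries.

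PKM makes the M1 form of pyruvate kinase or, by use of the other of a pair of exons, the M2 form typical of growing and tumour cells. The M2 transcript NM_002654.6 was at 1809 TPM with DMSO and 1651 TPM with CCA-1.1, or 92.73% and 93.07% of the gene. The M1 transcripts NM_182470.4 and NM_182471.4 summed to 33.8 and 32.6 TPM, or 1.73% and 1.84%. Further curated PKM transcripts were at 11.7 and 12.9 TPM (NM_001206797.3), 14.5 and 9.39 TPM (NM_001206798.3), and 4.48 and 4.69 TPM (NM_001206799.2). The balance of M1 and M2 was therefore nearly the same in both libraries.

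PFKFB3 and PFKFB4 differed in makeup more than in level. The leading PFKFB3 transcript NM_004566.4 was at 47.0 TPM with DMSO and 32.3 TPM with CCA-1.1, 70.1% and 51.8% of the gene. The PFKFB4 transcript NM_004567.4 was at 5.90 and 11.5 TPM, 24.8% and 45.8% of the gene. Over curated transcripts alone the genes differed by -0.27 for PFKFB3 and 0.36 for PFKFB4, so that PFKFB4 was then past 0.32. In PDK1 the predicted transcripts XM_047444737.1 and XM_047444738.1 lay opposite each other, the first at 4.23 and 0.94 TPM and the second at 0.02 and 5.65 TPM. The entry that led PDK1 is annotated as non-coding (NR_103729.2, 52.9% and 51.0%), so the level of coding PDK1 RNA is uncertain. In SLC2A6 the curated transcript NM_017585.4 was at 3.57 and 2.95 TPM, and its share was 51.8% and 69.7%, while the predicted XM_047422706.1 was at 0.70 TPM with DMSO and 0 with CCA-1.1.

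The remaining transcripts past 2-fold were mostly predicted and low. In GPD2, XM_011510977.3 and XM_047443966.1 were at 2.22 and 2.21 TPM with DMSO and both were listed at 0.00 with CCA-1.1. In LDHB, XM_006719074.3 was at 3.12 TPM with DMSO and 0.70 TPM with CCA-1.1. In PFKL, XM_005261137.5 was at 2.42 and 10.1 TPM, and in PFKFB3, NM_001314063.2 was at 0.22 and 2.01 TPM. Each made a small part of its gene or, for PFKL, stood beside a leading transcript that held 92.5% with DMSO and 85.3% with CCA-1.1. These transcripts were picked out once their values were known.

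The neighbouring pathways were described with lists of further genes, read at a mean of at least 1 TPM and past 0.32. Of all 12041 protein-coding genes at that level, 6.84% were past 0.32 higher and 4.53% lower. In lists this small, a count near those shares tells nothing particular about a pathway. Of 12 other glycolysis and glucose entry genes 1 was past 0.32, the muscle enolase ENO3, which was at 4.90 TPM with DMSO and 3.56 TPM with CCA-1.1 and was named after its value was seen. The list's median was -0.03 and its most abundant gene, the bisphosphoglycerate mutase BPGM, was at 94.5 and 91.2 TPM. Of 16 other pyruvate genes PDK4 alone was past 0.32, with a list median of -0.02. BSG (basigin), the chaperone of the lactate carriers, was the most abundant of these at 2096 and 1904 TPM, a difference of -0.14.

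In the side branches the list medians lay between -0.09 and 0.09. In the pentose phosphate pathway, which makes NADPH and ribose, 3 of 8 genes were higher and 5 lower, and 1 was past 0.32, H6PD of the endoplasmic reticulum, at 18.9 TPM with DMSO and 14.3 TPM with CCA-1.1. TKT, a transketolase and the most abundant of them, was at 574 and 560 TPM. Of 11 genes of glycogen and hexose phosphate metabolism, 8 were higher and 3 lower, with a median of 0.09. The branching enzyme GBE1 was at 262 and 286 TPM. None of these 11 genes was past 0.32. None of the 5 genes of serine synthesis and use was past it either, and SHMT2 was at 101 and 107 TPM. In the tricarboxylic acid cycle, which oxidises the acetyl group made from pyruvate, 10 of 15 genes were lower and 5 higher, with a median of -0.09. Over all protein-coding genes averaging at least 1 TPM, 46.0% were lower and the median was 0.02. SUCLG1, a subunit of succinyl-CoA ligase, was at 84.0 and 108 TPM, past 0.32 higher. SDHB, a succinate dehydrogenase subunit, was the most abundant at 338 and 318 TPM.

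Of 23 genes of the HIF pathway and its targets outside glycolysis, 11 were higher and 12 lower, with a median of -0.04. HIF1A was at 534 TPM with DMSO and 517 TPM with CCA-1.1. ADM (adrenomedullin), a vasodilator peptide, was at 714 and 499 TPM, and CA12, a surface carbonic anhydrase, at 140 and 100 TPM, the 2 genes of the list past 0.32. The stress gene NDRG1, the most abundant of the list, was at 693 and 777 TPM.

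The large differences near this pathway lay in 2 genes, TXNIP and ARRDC4, which are targets of MondoA, the transcription factor that reads glucose 6-phosphate. The list was drawn up with earlier results of these data known, and these genes do not stand for the targets of MondoA as a whole. TXNIP, an arrestin-like protein that limits glucose uptake by drawing GLUT carriers from the membrane, was at 1682 TPM with DMSO and 133 TPM with CCA-1.1, a difference of -3.65. ARRDC4, its relative, was at 90.0 and 26.0 TPM, a difference of -1.75. MondoA itself (MLXIP) was at 12.3 and 12.0 TPM, and its partner MLX at 66.0 and 69.9 TPM. Beside these values SLC2A1 and SLC2A3 differed by 0.20 and 0.05. Whether the levels of TXNIP and of the carriers are linked was not tested.

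**Figure D4:**
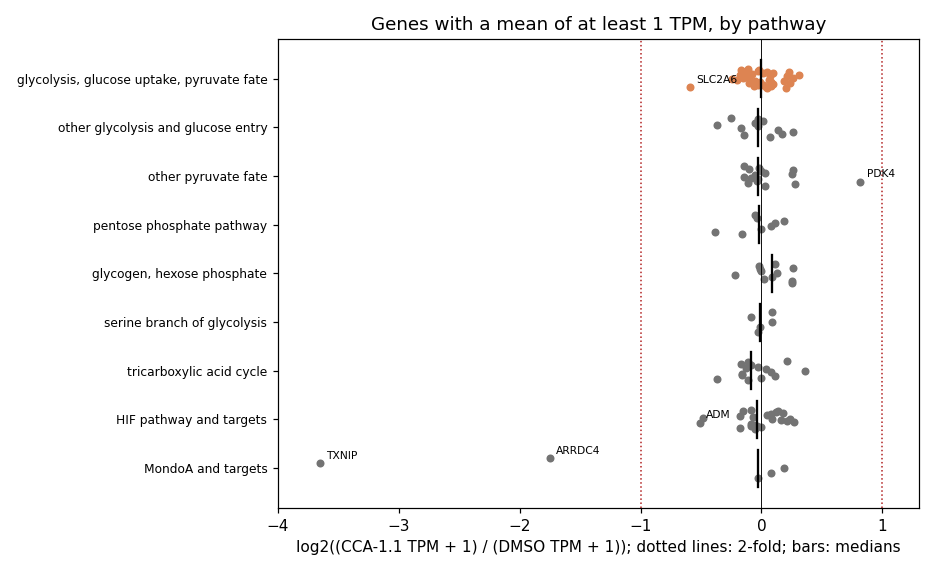
Differences of genes averaging at least 1 TPM, 1 point per gene and 1 row per list, on the log2(TPM + 1) scale, with bars at the medians and dotted lines at 2-fold. Most points of every list lie near 0, PDK4 is at 0.82, and TXNIP at -3.65 and ARRDC4 at -1.75 are the only genes past 2-fold.

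The label of the cells was checked against markers. VIM (vimentin) was at 3217 TPM with DMSO and 3106 TPM with CCA-1.1 and CD44 at 607 and 473 TPM, both typical of mesenchymal glioma cells. Other genes of the same marker list were low, with NES at 7.53 and 7.62 TPM, SOX2 at 1.87 and 1.45 TPM and OLIG2 at 5.64 and 7.03 TPM. The list as a whole therefore does not settle the identity of the cells. The astrocyte markers GFAP (0.41 and 0.57 TPM), S100B (0 in both) and AQP4 (0 and 0.02 TPM) were absent or nearly so, while ALDH1L1, also an astrocyte marker, was at 3.42 and 6.05 TPM, a difference of 0.67. Of the neuronal markers, TUBB3 was at 216 and 194 TPM and SYP at 47.4 and 43.2 TPM. PTPRC and AIF1, which define leukocytes and myeloid cells, were at 0.1 TPM or less in both, although CD68, a lysosomal marker, was at 494 and 397 TPM. Rescaling the libraries to the median ratio of their protein-coding genes moved the differences by at most 0.0040.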

How the data were processed

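RNA from U87 cells treated for 72 h with DMSO or CCA-1.1 was measured, 1 library per condition. The authors enriched mRNA, prepared libraries with a SMARTER kit, sequenced them on an Illumina instrument, checked reads with FastQC 0.11.9 and MultiQC 1.1, and quantified RefSeq transcripts of GRCh38.p14 by pseudo-alignment in Kallisto. The deposited values are TPM to 2 decimals. This unit was read from the column sums, 999999 and 1000000. Whether bias correction was used, and the strand setting, are not given in the sources used here.

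Of 177816 transcripts, 169966 matched a symbol of the RefSeq gene table of GRCh38.p14. The 7850 others held 0.941% of TPM in DMSO and 0.967% in CCA-1.1. TPM were summed per gene and differences taken on the log2(TPM + 1) scale. With 1 library per condition no test was run, and any p-value from these libraries would compare the libraries and not the conditions. TPM keep no read depth, so the precision of single values is unknown.

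Members and pathway lists were chosen with earlier results of these data known. All 37 genes are named. From the lists, genes past a log2 difference of 0.32 and averaging at least 5 TPM and the most abundant gene are named. Transcripts are named that hold at least 10% of their gene in a library and whose share differs by at least 10 points, with the curated PKM transcripts. Other genes are given only where a result turns on them. An item that met these rules is not reported here. Promoter windows come from RefSeq, GRCh38.p14. Genes with near-identical copies, such as GAPDH, PGAM1 and TPI1, are uncertain where reads were divided between copies. Alternatives were other pseudocounts, scaling, curated transcripts, versioned identifiers, other level minimums, a fold of 1.5, and pseudogenes added to their genes. The procedure was tested on simulated data. Python 3.11.15, numpy 2.4.6, pandas 2.3.3 and matplotlib 3.10.9 were used.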

Additional observations from a re-analysis of the deposited data

How the results depend on the processing

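No paired analysis was possible because each condition had a single library, and for the same reason no library could be left out. Without a spread between replicates, a difference was taken as moved past 0.32 on the log2 scale, a share past 10 points and a count past 1.5 times its value. By that measure 386 of 403 recomputed values stayed, 17 moved and 0 past that limit reversed, and the count of members past 2-fold remained 0 throughout. Many of these values could not move. With versioned identifiers 0 member transcripts were lost, the minimum of 10 TPM repeated the same gene differences, and only 3 named pseudogenes could be added. Among single members only SLC2A6 was past 0.32 and so could be counted as reversed. The number that stayed is therefore no measure of stability. The count past 0.32 lower, 1 as reported, was 2 with a pseudocount of 0.1 TPM, 2 without a pseudocount and 2 with scaling and no pseudocount together, an alternative chosen after seeing the data, as FBP1 was then counted. It was 0 with curated transcripts and 0 for members averaging at least 10 TPM. The count past 0.32 higher, 0 as reported, was 1 without a pseudocount (MPC1) and 1 with curated transcripts (PFKFB4). Among single members, only curated transcripts turned a sign, for PFKL and GPD1L. They also turned the summed glycerol phosphate dehydrogenases from -0.11 to 0.03 and moved SLC2A6 from -0.59 to -0.18. The median of the members was -0.0094 over all 37 and 0.0098 over those averaging at least 10 TPM. Curated transcripts also changed the makeup of the kinases, with PDK1 at 27.0% of PDK1 to PDK3 with DMSO and 29.9% with CCA-1.1 in place of 41.0% and 45.4%. PDK2 then led in place of PDK1, at 45.0% with DMSO and 45.5% with CCA-1.1. The NM_004567.4 share of PFKFB4 was then 40.8% and 60.9%. The read depth behind low values, such as FBP1 and single transcripts near 1 TPM, is unknown.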

Other observations

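Some transcribed neighbours and copies of the glycolytic genes were also listed, and they were looked up by name after the values of the genes were seen. ENO1-AS1, antisense to ENO1, was at 16.88 TPM with DMSO and 12.11 TPM with CCA-1.1, a difference of -0.45 beside -0.15 for ENO1. SLC16A1-AS1 was at 8.93 and 10.60 TPM beside 0.07 for the difference of SLC16A1, and SLC2A1-DT, a divergent transcript, at 2.88 and 4.24 TPM beside 0.20 for SLC2A1. PFKFB3-AS1 lay opposite its gene, at 0.29 and 0.69 TPM, a difference of 0.39 beside -0.10 for PFKFB3. The strand setting of the quantification is not given in the sources used here. Where a gene and its antisense partner overlap, their reads may therefore not have been told apart. The pseudogene PGAM1P5 was at 1.02 TPM with DMSO and 3.26 TPM with CCA-1.1, against 560 and 475 TPM for PGAM1 itself. TPI1P2 (0.71 and 0.98 TPM) and TPI1P3 (0.09 and 0.33 TPM) were also higher, beside -0.05 for TPI1.

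GAPDH, TPI1 and ENO2 lie within 389 kb of each other on chromosome 12, from 6534517 to 6923697 (GRCh38.p14). Their differences, -0.20, -0.05 and 0.26, did not share a direction.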
